A study of Mus musculus with 10 samples.

Results

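The response described here is that of mouse B lymphocytes to 2 h of stimulation through the antigen receptor, in cells labelled wild type and cells labelled Nr4a1 knockout. All 10 RNA libraries of the series enter it, 8 stimulated and 2 unstimulated, chosen by the stimulation and genotype in their labels and not by any measured value. The cells came from spleen and lymph nodes of C57BL/6 mice aged 10 weeks, with genotype Nr4a1+/+ (wild type) or Nr4a1-/- (knockout), and were isolated by magnetic negative selection, in which the other cell types are tagged and removed. Stimulation was with anti-IgM at 10 µg/mL for 2 h, which binds and clusters IgM antigen receptors on the cell. Each genotype had 4 stimulated libraries, lettered A to D, and 1 unstimulated library, lettered A, which received no agent. The unstimulated libraries stand at 0 h and the stimulated ones at 2 h. Changes due to anti-IgM and changes due to the 2 h of incubation therefore cannot be told apart. The labels do not say that the letters are separate mice, so every p-value below measures only the spread between these libraries, which may be technical. Of 17658 genes in the deposited table, 10225 had a mean of at least 1 FPKM (fragments scaled to transcript length and to library size) over the 10 libraries and were tested. The genes Kctd1 and Kif2c, both at a mean of 0.998 FPKM, lay just outside that minimum, and Prodh, at 1 FPKM, just inside it.

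Crosslinking of the B cell antigen receptor activates the kinases Lyn and Syk, which act through the signalling chains Cd79a and Cd79b and reach the NF-kB, NFAT, MAP kinase and PI3 kinase pathways. Immediate early genes are transcribed from factors already present in the resting cell, and the proteins they encode, with Myc and Irf4, then direct growth before the first cell division. A resting follicular B cell is held quiescent by factors such as Klf2 and Foxo1, is guided through lymphoid tissue by receptors such as Ccr7 and S1pr1, and is restrained at the receptor by Cd22, Fcgr2b and related inhibitory coreceptors.

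The summed FPKM of a library, which carries no information on the number of reads, was 674961 and 595500 in the unstimulated wild-type and labelled knockout libraries and lay between 557214 and 571784 in the 8 stimulated libraries. Stimulation separated the libraries along the first principal component, which held 74.6% of the variance, and the second, with 5.69%, separated the genotypes. Nr4a1 itself, an immediate early nuclear receptor, stood at 126 FPKM in both unstimulated libraries, at 806, 744, 826 and 856 FPKM in wild type after stimulation (libraries A to D), against 713, 675, 760 and 660 FPKM in the libraries labelled knockout. Its gene-level RNA therefore does not check the genotype labels, and the second genotype is called "labelled knockout" throughout. B cell markers were abundant in every library (summed level of 8 genes 1793 to 4324 FPKM). Of 10 T cell markers, 8, among them Cd3e, Cd4 and Cd8a, stayed at or under 0.53 FPKM everywhere, while Lck and Il7r rose. Myeloid markers were low and variable, with a sum over 9 genes of 82.6 and 100 FPKM unstimulated and of 28.7 to 149.5 FPKM stimulated, with Lyz2 the highest, and 0 of them were called. Haemoglobin and other erythroid transcripts summed to 122.8 FPKM in the unstimulated wild-type library, 40.3 FPKM in the unstimulated labelled knockout library and 7.88 to 66.6 FPKM after stimulation, and their part in the results was not tested. All 3 erythroid genes tested were among the called falls, with changes of -1.775 for Hba-a2, -1.772 for Hbb-bs and -1.245 for Hbb-bt. Their stimulated and unstimulated values overlapped, and 0 of the 3 were called lower in both genotypes. Of 4 dendritic cell markers tested, 2 were called higher, Ccr9 (1.507) and Zbtb46 (1.482), and 0 lower. In bulk RNA, fewer cells of a type and less RNA per cell cannot be told apart.

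Within 2 h of anti-IgM, many genes for growth rose and many genes of the resting, recirculating B cell fell. A gene was called higher or lower at a limma adjusted p under 0.05 and a change of at least 1 on the log2(FPKM + 1) scale, which understates the change of low genes, in a fit of all 10 libraries with genotype as a term. By that rule 812 genes rose (7.94% of those tested) and 1266 fell (12.4%). Of the 812, 804 were higher in all 8 stimulated libraries than in both unstimulated ones, and 1250 of the 1266 were lower in all 8. The genes were selected on that same contrast, so their separation is not a further test of it. A rise of at least 2 was seen in 91 genes and a fall of at least 2 in 150, while 8069 genes passed the p threshold at any size. The median change over all tested genes was -0.17. Every list below is to be read against it and against the shares of all tested genes called, 7.94% higher and 12.4% lower. Scalings that centre that median (0.004 to -0.03) called 985 to 1102 genes higher and 901 to 1074 lower, so that rises made up 50.5% to 53.8% of the calls in place of 39.1%.

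The share of the summed FPKM held by the called genes moved with stimulation. Genes called higher held 3.84% and 4.73% of the summed FPKM in the unstimulated wild-type and labelled knockout libraries and 12.6% to 14% in the stimulated ones. Genes called lower went from 10.2% and 11.1% to between 3.96% and 4.33%. These shares describe genes selected on the same contrast and are not a test. Among the called genes, the largest gains in FPKM were those of Nfkbid, Irf4, Cd83, Hsp90ab1, Hspa8 and Npm1. Cd83, a surface protein that stabilises MHC class II, went from 620 and 529 FPKM to between 1418 and 1541 FPKM. The largest losses among called genes were those of Tmsb4x, an actin-binding peptide whose call was lost with each other scaling and without the unstimulated wild-type library, of the surface glycoprotein Cd52 (3396 and 2478 FPKM unstimulated, 737 to 811 FPKM stimulated), and of the antigen receptor genes Cd79b, Cd79a and Igh. Igh went from 1582 and 1616 FPKM to between 651 and 704.5 FPKM.

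**Figure D1:**
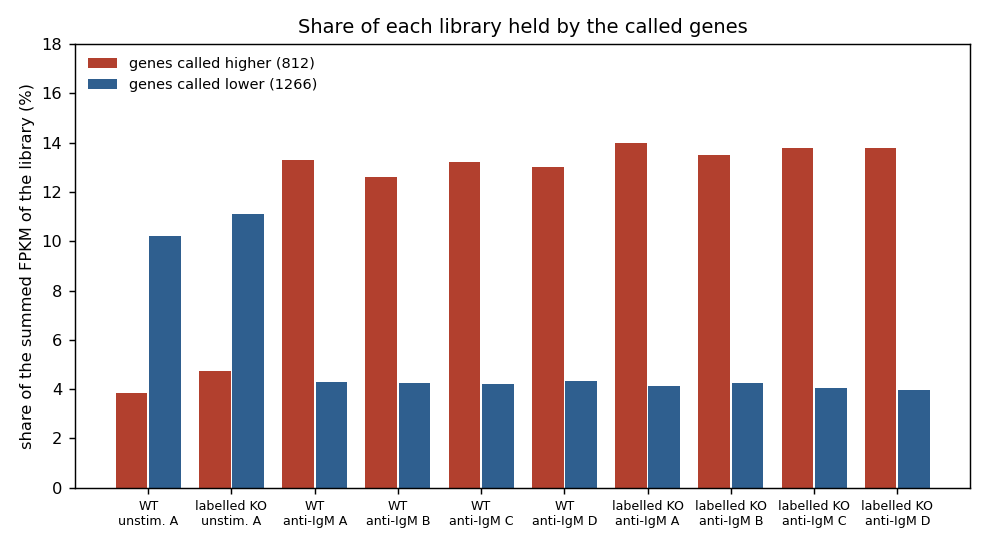
Share of each library's summed FPKM (y axis, in percent) held by the 812 genes called higher (red bars) and the 1266 called lower (blue bars), 1 pair of bars per library. The red bars stand at 3.84% and 4.73% in the unstimulated libraries and at 12.6% to 14% in the 8 stimulated ones, and the blue bars move from 10.2% and 11.1% to at most 4.33%.

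The steepest rises included the transcription factor Myc, a driver of cell growth. Myc stood at 61.5 and 88.9 FPKM in the unstimulated wild-type and labelled knockout libraries, after stimulation at 726, 683, 740 and 732 FPKM in wild type (libraries A to D), against 784, 758, 827 and 768 FPKM in labelled knockout. No stimulated library overlapped the unstimulated ones, and the change was 3.33 ± 0.08 (log2, standard error; adjusted p = 4.82e-11). The vascular growth factor gene Vegfa was at 5.33 and 5.16 FPKM before stimulation, after it at 57.4, 49.7, 53.1 and 51.6 FPKM in wild type and at 87.9, 72.0, 78.6 and 82.9 FPKM in labelled knockout libraries, a rise of 3.40 ± 0.12 (adjusted p = 6.03e-10). Every labelled knockout value of Vegfa lay above every wild-type value after stimulation, and the unstimulated pair were nearly equal. Maff, a small basic leucine zipper factor, rose from 4.91 and 7.32 FPKM to between 50.8 and 72.9 FPKM (3.15 ± 0.05, adjusted p = 9.54e-12).

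Of the remaining leading rises, Irf4, the factor that governs plasma cell and germinal centre fate, went from 124 and 115 FPKM to between 970 and 1113 FPKM, with a median of 1047 FPKM. Il2ra, the alpha chain of the interleukin 2 receptor, went from 13.1 and 12.8 FPKM to between 111 and 126 FPKM. The transcriptional repressor Gfi1 reached 110 to 125 FPKM from 11.2 and 17.0 FPKM. The secreted protease gene Plau reached 52.7 to 77.3 FPKM from 5 and 8.93 FPKM. Slc15a3, a lysosomal peptide and histidine transporter, and Mreg, an organelle transport adaptor, rose by 3.01 and 2.89. The chemokine gene Ccl4 had the widest spread among these after stimulation, from 397 to 965 FPKM against 76.4 and 103 FPKM before it.

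**Figure D2:**
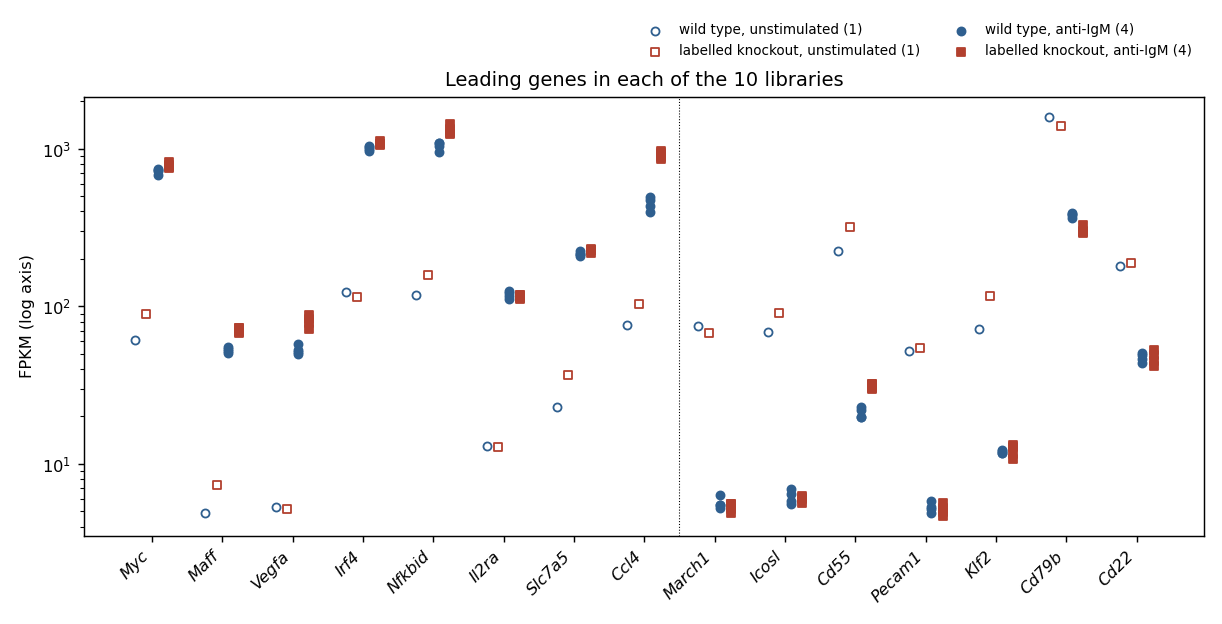
FPKM on a log axis for 8 rising genes (left of the dotted line) and 7 falling genes (right), with open symbols for the 2 unstimulated libraries and filled symbols for the 8 stimulated ones, circles for wild type and squares for labelled knockout. In each of the 15 genes the stimulated libraries lie clear of the unstimulated pair, for example Myc at 683 to 827 FPKM against 61.5 and 88.9 FPKM, and March1 at 4.85 to 6.39 FPKM against 74.98 and 68.2 FPKM.

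Immediate early transcription factors were led by Maff and the Nr4a and Egr families. Of 24 tested, 13 were called higher and 0 lower, with a list median of 1.40. Nr4a3 rose from 17.5 and 22.7 FPKM to between 116 and 189 FPKM (2.83), and Egr2 from 10.9 and 19.7 FPKM to between 81.2 and 115 FPKM (2.62). Egr1 and Egr3 reached 112.7 ± 11.2 and 223.9 ± 34.6 FPKM (SD, n = 8). The AP-1 gene Fos, by contrast, was at 2.70 and 5.38 FPKM before and 4.83 ± 0.65 FPKM after stimulation (SD, n = 8; change 0.26, adjusted p = 0.140), and Jun had a change of -0.05. Among factors of B cell fate, 6 of 24 were called higher and 3 lower (median 0.16). Those shares, 25% and 12.5%, stand beside 7.94% and 12.4% of all tested genes, so the share of falls was near that of all genes. Besides Irf4, the bHLH repressor Bhlhe40 rose from 23.5 and 32.7 FPKM to between 140 and 177 FPKM, and the AP-1 partner Batf from 17.4 and 18.7 FPKM to between 51.6 and 102 FPKM. The interferon regulatory factor Irf8 reached 334.3 ± 8.75 FPKM (SD, n = 8) from 119 and 128 FPKM. Prdm1, the plasma cell master factor, stayed low, at 3.41 to 6.36 FPKM against 1.13 and 2.23 FPKM, and its call was lost with a pseudocount of 5 or without the unstimulated wild-type library. Id3, an inhibitor of E proteins, fell from 79.8 and 95.3 FPKM to between 19.0 and 24.3 FPKM. Pax5, which maintains B cell identity, fell by 1.24 to between 53.2 and 60.6 FPKM from 135 and 132 FPKM, and Mef2c fell by 1.17, a call lost with median-of-ratios scaling.

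In the NF-kB system the rises were mostly of inhibitors and of the Rel and p105 subunits. Of 22 genes, 9 were called higher (40.9%, beside 7.94% of all tested genes) and 3 lower (13.6%, near the 12.4% of all tested genes), with a median of 0.64. Nfkbid, a nuclear IkB protein, had among the largest gains in FPKM of all called genes, from 117 and 158 FPKM to 1040, 950, 1086 and 1090 FPKM in wild-type and 1324, 1246, 1429 and 1253 FPKM in labelled knockout libraries A to D (3.09, adjusted p = 3.08e-11). All labelled knockout values were above all wild-type values, before as well as after stimulation. The deubiquitinase Tnfaip3 (A20), which shuts NF-kB signalling down, rose from 31.4 and 36.6 FPKM to between 204 and 255 FPKM, and the inhibitor Nfkbie from 47.3 and 59.1 FPKM to between 199 and 212 FPKM. Nfkb1 and Rel rose by 1.53 and 1.46, whereas Rela and Relb had changes of 0.21 and 0.52. The 3 that fell were the adaptor Traf5 (1.81, to between 9.63 and 12.4 FPKM), the atypical IkB gene Bcl3 (1.31) and the ubiquitin ligase Birc2 (1.12). The call of Birc2 was lost with TPM and median-of-ratios scaling.

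Promoter sequences of 3 of these NF-kB pathway genes, and of Il2ra from the list of surface activation markers, are shown because each holds a match to the NF-kB motif. Windows run from 250 bases before to 50 bases after the start site in the RefSeq annotation (GRCm38.p6), 5′ to 3′ on the gene's strand, and capitals mark matches on either strand. The motifs searched were CACGTG (E box), TGACGTCA (CRE), TGANTCA (AP-1), GCGNGGGCG (Egr), the CArG box and the NF-kB motif, none of which contains another.
Nfkbid, chr7:30422156-30422455, plus strand: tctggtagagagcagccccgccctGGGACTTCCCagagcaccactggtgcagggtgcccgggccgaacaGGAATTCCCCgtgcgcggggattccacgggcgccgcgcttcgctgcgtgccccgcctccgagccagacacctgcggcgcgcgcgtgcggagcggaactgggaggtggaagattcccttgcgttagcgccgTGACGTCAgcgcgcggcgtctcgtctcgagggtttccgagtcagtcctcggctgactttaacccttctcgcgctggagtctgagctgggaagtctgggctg
Tnfaip3, chr10:19015361-19015660, minus strand: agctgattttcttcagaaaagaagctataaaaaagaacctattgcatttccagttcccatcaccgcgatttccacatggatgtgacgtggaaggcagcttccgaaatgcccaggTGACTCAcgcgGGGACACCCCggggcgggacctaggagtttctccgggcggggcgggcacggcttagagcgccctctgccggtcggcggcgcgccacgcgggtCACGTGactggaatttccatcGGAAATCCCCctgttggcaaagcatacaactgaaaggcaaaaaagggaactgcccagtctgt
Nfkbie, chr17:45555450-45555749, plus strand: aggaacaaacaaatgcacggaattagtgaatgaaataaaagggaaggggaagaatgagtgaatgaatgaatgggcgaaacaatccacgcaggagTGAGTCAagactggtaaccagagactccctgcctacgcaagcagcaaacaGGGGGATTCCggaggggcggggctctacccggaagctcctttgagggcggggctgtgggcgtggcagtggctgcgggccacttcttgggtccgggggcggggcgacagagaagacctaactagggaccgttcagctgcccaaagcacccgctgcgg
Il2ra, chr2:11642542-11642841, plus strand: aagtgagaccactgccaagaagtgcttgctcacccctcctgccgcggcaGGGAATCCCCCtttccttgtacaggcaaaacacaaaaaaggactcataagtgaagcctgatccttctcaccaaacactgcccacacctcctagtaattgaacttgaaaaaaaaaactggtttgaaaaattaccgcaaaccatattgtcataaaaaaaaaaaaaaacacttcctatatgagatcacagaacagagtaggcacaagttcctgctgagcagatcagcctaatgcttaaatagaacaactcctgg
The Nfkbid window shown holds 2 NF-kB motifs followed by TGACGTCA. Other Nfkbid windows, starting at chr7:30421481 and chr7:30423025, hold 0 matches to the motifs searched and are not shown. The Tnfaip3 window holds TGANTCA, an NF-kB motif, CACGTG and a further NF-kB motif. That of Nfkbie holds TGANTCA and 1 NF-kB motif, and that of Il2ra 2 overlapping NF-kB motifs. Of the 22 genes of the NF-kB list, 18 had a promoter entry (81.8%), and 9 of the 18 held an NF-kB motif in at least 1 entry (50%), against 6.25% of 7547 tested genes with an entry. The 9 were Bcl3, Nfkb2, Nfkbia, Nfkbid, Nfkbie, Rel, Tnfaip3, Tnip1 and Traf3, of which 4 were called higher and Bcl3 lower. A match of letters is a description and does not show that a factor binds there.

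Some secreted and surface molecules of activation also rose. Among 15 cytokine and chemokine genes, 5 were called higher and 1 lower (median 0.27). Besides Vegfa and Ccl4, Ccl3 went from 27.8 and 35.1 FPKM to between 81.8 and 180 FPKM, and Tnf from 14.8 and 22.6 FPKM to 39.5 ± 8.64 FPKM (SD, n = 8). Ltb, the membrane anchor of lymphotoxin, fell from 228 and 237 FPKM to between 43.8 and 51.2 FPKM (2.29, adjusted p = 4.82e-11). Of 16 surface activation markers and costimulatory ligands, 8 were called higher and 1 lower (median 1.08). The checkpoint ligands Cd274 (PD-L1) and Pdcd1lg2 (PD-L2) rose by 1.75 and 1.87, Cd274 from 28.2 and 31.0 FPKM to between 94.3 and 113 FPKM. The adhesion molecule Icam1 reached 121.8 ± 18.9 FPKM from 32.4 and 38.8 FPKM, and the early activation antigen Cd69 reached 309.0 ± 53.4 FPKM from 120.2 and 119.9 FPKM (SD, n = 8 each). Cd86, the ligand of CD28, had a change of 0.72, below the size required for a call.

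Icosl, the ligand of the T cell costimulator ICOS, went the other way. It stood at 68.9 and 90.1 FPKM in the unstimulated libraries, then at 6.44, 5.84, 5.60 and 6.97 FPKM in wild type (libraries A to D), against 6.30, 6.08, 5.65 and 5.98 FPKM in the labelled knockout ones. The fall was 3.49 ± 0.10 (adjusted p = 1.28e-10), with stimulated values of both genotypes in the same narrow range.

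Feedback and survival genes moved in both directions. Of 13 MAP kinase phosphatases and Sprouty proteins, which switch off ERK and related kinases, 4 were called higher and 0 lower (median 0.30). Dusp4 went from 21.3 and 22.2 FPKM to between 76.8 and 101 FPKM and Dusp2 from 119 and 134 FPKM to between 315 and 382 FPKM, while Dusp14 was lower throughout (3.09 to 5.70 FPKM stimulated) and lost its call with a pseudocount of 5. In the Bcl2 family 4 of 15 genes were called higher and 3 lower (median 0.06). The pro-survival genes Bcl2l1 (Bcl-xL), Bcl2a1b and Bcl2a1d rose, Bcl2l1 from 9.65 and 9.90 FPKM to between 63.5 and 90.3 FPKM (2.80, adjusted p = 1.93e-10). Bcl2a1b and Bcl2a1d are near-identical copies, so their separate values are uncertain. The pro-apoptotic Bcl2l11 (Bim) rose too, to 90.6 ± 3.15 FPKM (SD, n = 8) from 28.1 and 41.6 FPKM. Bcl2 itself fell by 1.37 from 8.95 and 9.97 FPKM, and the pro-apoptotic Bad and Bmf fell by 1.36 and 1.31. The calls of Bcl2 and Bad were lost with a pseudocount of 5, and that of Bad also with quantile normalization. Mcl1 had a change of -0.04.

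**Figure D3:**
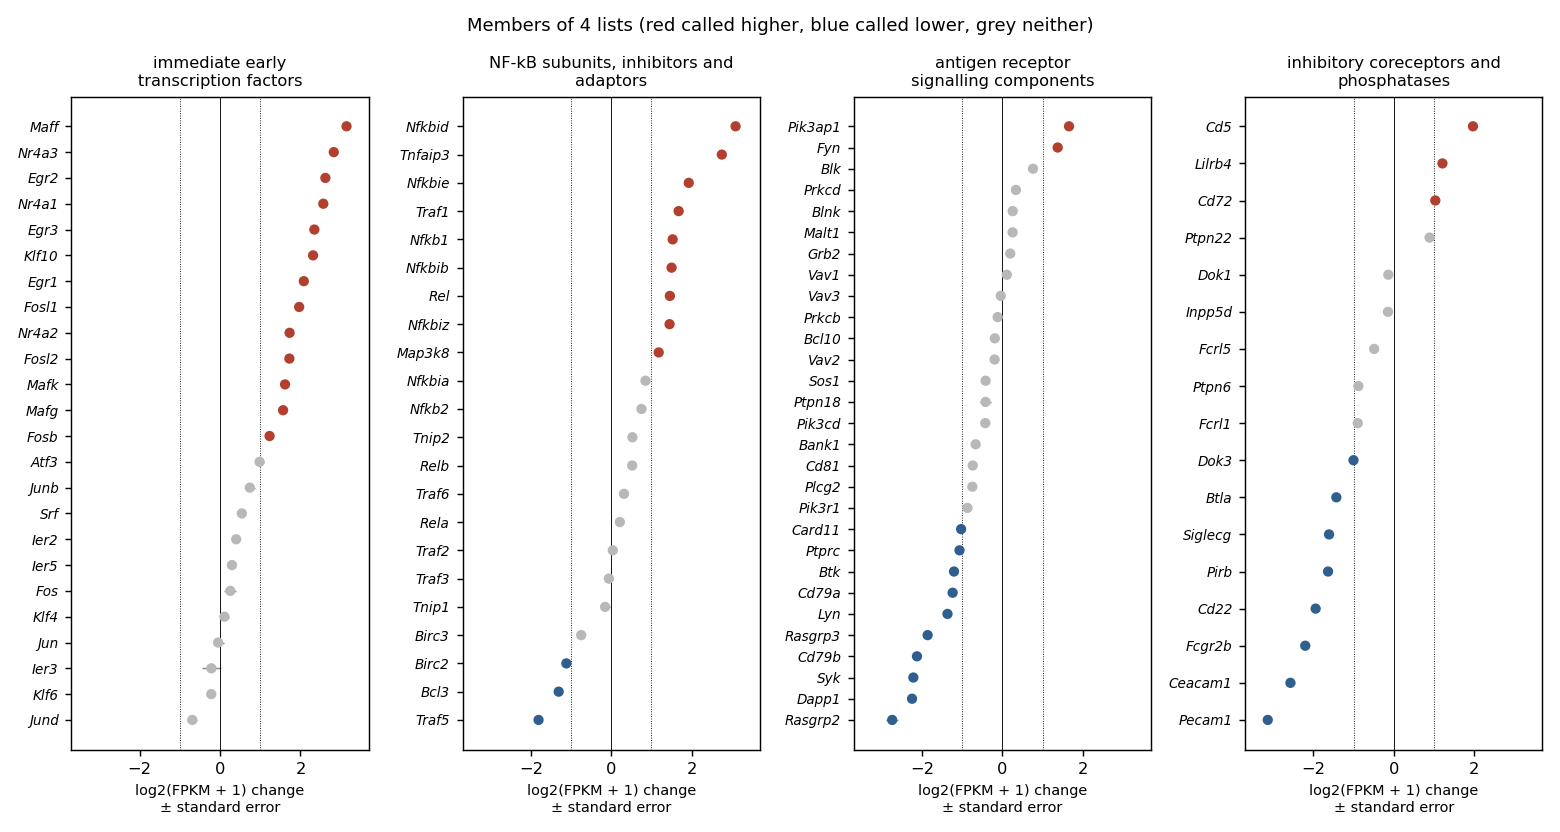
Change after anti-IgM on the log2(FPKM + 1) scale (x axis, point ± standard error) for tested members of 4 lists, with dotted lines at 1 and -1; 1 member of the receptor signalling list is not drawn. Immediate early factors lie mostly to the right (13 of 24 called higher, 0 lower), antigen receptor signalling components mostly to the left (2 of 30 called higher, 11 lower), and the 22 NF-kB genes and 17 inhibitory coreceptors and phosphatases hold calls on both sides.

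Most genes of ribosome production rose. Of 48 ribosome biogenesis factors, 41 were called higher and 0 lower, with a median of 1.35 and every member above 0 (0.23 to 2.24). Rrp1b and Rrp9, which process pre-ribosomal RNA, rose by 2.24 and 2.13, Rrp9 from 23.9 and 30.3 FPKM to between 115 and 126 FPKM. The nucleolar phosphoprotein gene Nolc1 went from 47.0 and 57.1 FPKM to between 196 and 218 FPKM, and the nucleolar proteins Ncl and Fbl reached 518.1 ± 22.4 and 371.9 ± 16.5 FPKM from 179.8 and 172 FPKM and from 138 and 169.8 FPKM (SD, n = 8 each). The 48 genes together held 0.504% and 0.543% of the summed FPKM unstimulated and 1.41% ± 0.04 stimulated (SD, n = 8). For the machinery that transcribes ribosomal and transfer RNA, 10 of 28 subunits and factors of RNA polymerases I and III were called higher and 0 lower (median 0.75). Polr1b rose from 22.8 and 29.1 FPKM to between 93.6 and 105 FPKM, Cd3eap (a polymerase I subunit) by 1.94 and Polr3d by 1.5.

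No gene for a protein of the mature cytosolic ribosome was called. Of 80 cytosolic ribosomal protein genes 0 were called in either direction, and their median of -0.44 lay below that of all genes in the deposited scale and with TPM and median-of-ratios scaling (-0.26 with the latter). They held 31.1% and 25.7% of the summed FPKM in the unstimulated wild-type and labelled knockout libraries and 22.7% ± 0.50 in the stimulated ones (SD, n = 8), so the unstimulated pair differed from each other by more than the stimulated libraries did. Npm1, a nucleolar chaperone called higher at 1.02, lost its call without the unstimulated labelled knockout library.

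Genes that supply amino acids, nucleotides and polyamines were called higher in part. Of 20 cytosolic aminoacyl tRNA synthetases, which charge tRNA with amino acids, 12 were called higher and 0 lower (median 1.15), led by Yars (17.5 and 21.1 FPKM to between 70.7 and 78.1 FPKM), Cars (1.81) and Aars (1.71). Of 17 amino acid transporters 6 were called higher and 1 lower (median 0.76). Slc7a5, the light chain of the large neutral amino acid transporter, was at 22.9 and 36.7 FPKM before stimulation and at 208 to 232 FPKM after it, and its partner Slc3a2 went from 36.2 and 51.7 FPKM to 164.2 ± 14.8 FPKM (SD, n = 8). The cationic amino acid transporter Slc7a1 rose by 2.45 and the neutral transporter Slc1a4 by 2.11. Slc43a2, another carrier of large neutral amino acids, fell from 12.7 and 17.6 FPKM to between 1.49 and 2.22 FPKM. Genes of the amino acid response, the programme of the factor Atf4, had 8 of 13 called higher and 0 lower (median 1.19). Trib3, Sesn2 and Chac1 rose by 2.27, 2.18 and 2.09, from at most 5.06 FPKM to between 11.8 and 25.5 FPKM, and Atf4 itself by 1.25.

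In nucleotide and one-carbon synthesis 12 of 29 genes were called higher and 1 lower (median 0.92). The folate enzymes Shmt1 and Mthfd2 rose by 2.4 and 2.30, Mthfd2 from 21.0 and 21.2 FPKM to between 99.7 and 116 FPKM. The CTP synthase Ctps rose from 21.5 and 24.4 FPKM to between 89.8 and 98.0 FPKM, while its paralogue Ctps2 went down by 1.10 from 20.5 and 21.1 FPKM, a call lost with scalings that centre the median. Among 9 polyamine genes 3 were called higher and 0 lower (median 0.87): Srm, which makes spermidine, by 2.24, Amd1 by 1.28, and Odc1, the rate-limiting decarboxylase, by 1.23 from 123 and 149 FPKM to between 304 and 338 FPKM.

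Protein synthesis and folding factors rose in part. Of 52 translation initiation factors and their regulators, 16 were called higher and 1 lower (median 0.56), with Eif2b3, Eif3j1 and the cap-binding inhibitor Eif4ebp1 at 1.5, 1.36 and 1.32. The cap-binding protein gene Eif4e rose by 1.32. The 1 that fell was Eif2ak2 (PKR), an interferon-induced kinase that blocks initiation (1.03, from 6.18 and 5.43 FPKM), and its call was lost with a pseudocount of 5 and with scalings that centre the median. Of 22 chaperones 7 were called higher and 0 lower (median 0.89), led by the mitochondrial chaperones Hspd1 (110 and 120 FPKM to between 294 and 332 FPKM) and Hspa9 (1.42). The cytosolic chaperone Hsp90ab1 went from 474 and 642 FPKM to between 1304 and 1418 FPKM. Mitochondrial import had 8 of 22 called higher and 0 lower (median 0.53: Timm8a1 1.49, Tomm40 1.44, Timm23 1.38), and nuclear pore components 4 of 19 and 0 (median 0.60), of which Nup133, Nup43 and Nup62 lost their calls with a pseudocount of 5. The call of Nup62 was also lost with quantile normalization. The respiratory chain did not share this: of 72 oxidative phosphorylation subunits 0 were called higher and 2 lower (median -0.31), and both falls, Ndufb11 and Ndufa6 (1.03 and 1.02), were lost with TPM and median-of-ratios scaling and without the unstimulated wild-type library. Mitochondrial ribosomal proteins had 4 of 73 called higher and 1 lower (median 0.05), shares of 5.48% and 1.37% that lie below the 7.94% and 12.4% of all tested genes.

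Some metabolic genes rose. Of 21 genes of glycolysis and glucose uptake 5 were called higher and 2 lower, and the median was near 0 (-0.0008). Those shares were 23.8% and 9.52%, beside 7.94% and 12.4% of all tested genes. Slc16a1, the lactate and monocarboxylate carrier, rose from 11.9 and 9.93 FPKM to between 50.6 and 59.3 FPKM, hexokinase Hk2 by 1.89 and the mutase Pgam1 by 1.56, and the lactate dehydrogenase gene Ldha reached 572.5 ± 12.1 FPKM (SD, n = 8) from 230.7 and 227 FPKM. Pdk1, a pyruvate dehydrogenase kinase, fell from 10.9 and 11.1 FPKM to between 2.83 and 3.75 FPKM, and Pfkfb4 fell by 1.07, both lost with a pseudocount of 5. The call of Pfkfb4 was also lost with median-of-ratios scaling and quantile normalization. The glucose transporters Slc2a1 and Slc2a3 had changes of 0.09 and -0.58. In cholesterol synthesis and uptake 8 of 21 genes were called higher and 0 lower (median 0.54), among them the oxygenase Sqle (6.50 and 6.32 FPKM to between 22.1 and 27.1 FPKM), the sterol sensor partner Insig1 (1.69) and Cyp51 (1.45).

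The cell cycle list split between G1 and later phases. Ccnd2, a D cyclin, rose from 19.4 and 20.9 FPKM to between 90.2 and 118 FPKM (2.31, adjusted p = 5.29e-11). Its kinases Cdk6 and Cdk4 rose by 1.68 and 1.04, the latter call lost with quantile normalization. Another D cyclin, Ccnd3, went the other way, from 39.8 and 47.5 FPKM to 14.8 ± 1.58 FPKM (SD, n = 8). The inhibitors Cdkn2d (p19) and Cdkn1b (p27) fell by 2.48 and 2.12, Cdkn1b from 84.1 and 94.5 FPKM to between 18.1 and 20.9 FPKM, and the pocket protein gene Rbl2 fell by 2.00. In all, 3 of 19 G1 genes were called higher and 7 lower (median -0.54). Of 28 genes of DNA replication and mitosis 0 were called at a size of 1, and their changes ran from -0.83 to 0.84 (median -0.21, above 0 only with quantile normalization).

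Of the clock genes, 5 of 14 were called higher and 0 lower (median 0.63). Ciart, a repressor of the clock activators, rose from 6.22 and 7.45 FPKM to between 42.8 and 49.0 FPKM (2.58, adjusted p = 3.08e-11), and Per1 from 15.1 and 20.9 FPKM to between 47.3 and 54.6 FPKM. The E box CACGTG, the letters bound by Myc and by the clock activators, is shown in the promoters of Ciart and Cdk4, chosen because each holds several copies.
Ciart, chr3:95882179-95882478, minus strand: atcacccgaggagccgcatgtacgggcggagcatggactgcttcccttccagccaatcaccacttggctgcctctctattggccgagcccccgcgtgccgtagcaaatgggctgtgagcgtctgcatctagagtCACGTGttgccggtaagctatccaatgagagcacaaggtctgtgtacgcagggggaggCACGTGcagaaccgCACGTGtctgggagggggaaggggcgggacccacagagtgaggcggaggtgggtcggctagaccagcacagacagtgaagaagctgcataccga
Cdk4, chr10:127063285-127063584, plus strand: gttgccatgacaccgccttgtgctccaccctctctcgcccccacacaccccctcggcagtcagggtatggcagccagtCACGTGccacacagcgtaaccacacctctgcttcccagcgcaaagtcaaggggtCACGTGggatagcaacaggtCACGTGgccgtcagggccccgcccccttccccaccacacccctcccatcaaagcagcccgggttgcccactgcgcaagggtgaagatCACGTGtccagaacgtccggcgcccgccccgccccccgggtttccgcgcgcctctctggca
Ciart holds 3 copies and Cdk4 holds 4 (capitals). Of 612 genes called higher with a promoter entry, 139 held CACGTG (22.7%), against 79 of 928 called lower (8.51%) and 12.7% of the 7547 tested genes with an entry. Entries were found for 81.7% of the genes called higher and 81.8% of those called lower, after leaving out accession-like and short RNA names. Of the other motifs, TGACGTCA was in 4.90% of genes called higher and 2.26% called lower (3.99% of tested), TGANTCA in 6.70% and 6.25% (5.71%), GCGNGGGCG in 14.7% and 12.4% (12.8%), the CArG box in 1.80% and 1.51% (1.5%), and the NF-kB motif in 8.66% and 5.82% (6.25%). Among the 43 ribosome biogenesis factors with an entry, 8 held CACGTG (18.6%), among them Grwd1, Nop2, Pes1 and Wdr43. Genes with more than 1 entry were counted once for any of them, and no test was made of these shares. Of the genes that rose by at least 2, 77.2% had an entry, too few for their shares to be given.

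The steepest falls were of genes at the surface of the resting cell. March1, a ubiquitin ligase that removes MHC class II and Cd86 from the surface, stood at 74.98 and 68.2 FPKM unstimulated, then at 6.39, 5.25, 5.45 and 5.45 FPKM in wild type (libraries A to D), against 5.53, 5.59, 4.85 and 5.14 FPKM in the labelled knockout ones (fall of 3.49 ± 0.07, adjusted p = 2.86e-11). Stimulated values of the genotypes overlapped. Cd55, which protects cells from complement, went from 225 and 319 FPKM to 22.8, 21.9, 19.9 and 19.97 FPKM in wild-type and 32.2, 30.4, 29.7 and 32.2 FPKM in labelled knockout libraries, a fall of 3.33 ± 0.06 (adjusted p = 1.04e-11). Labelled knockout values of Cd55 were above wild-type values at both times, and the falls were alike in size (3.35 in wild type, 3.32 in labelled knockout, adjusted p of the difference 0.844).

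Others among the steepest falls included Il10ra, the interleukin 10 receptor, from 65.6 and 80.5 FPKM to between 6.72 and 8.23 FPKM. Tmem173 (STING), a sensor adaptor for cytosolic DNA, went from 60.6 and 52.2 FPKM to between 4.43 and 6.30 FPKM. The glycosyltransferase gene B3gnt8 fell from 14.6 and 20.3 FPKM to between 0.43 and 1.11 FPKM, and Mylip, a ubiquitin ligase for the LDL receptor, from 81.6 and 100 FPKM to between 9 and 11.6 FPKM. Rnase6 and Trim34a fell by 3.21 and 2.91.

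Of 23 quiescence factors, 11 were called lower, 1 higher and 11 neither (median -0.99). Klf2, which keeps lymphocytes resting and directs their homing, went from 72.1 and 117 FPKM to between 10.7 and 13.1 FPKM (2.84, adjusted p = 2.96e-09). Sesn1, an inhibitor of mTORC1, fell from 94.1 and 96.4 FPKM to between 15.0 and 17.6 FPKM. The antiproliferative Btg2 fell by 1.60 and the glucose uptake inhibitor Txnip to 43.1 ± 2.08 FPKM from 134 and 167 FPKM (SD, n = 8), while Btg3 rose by 1.57. Foxo1 had a change of -0.82 and Btg1 of 0.28.

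Receptors of B cell traffic fell more often than they rose (7 lower and 3 higher of 20, median -0.62). P2ry10, a receptor for lysophospholipids, went from 374 and 319 FPKM to between 46.8 and 54.1 FPKM, S1pr4 fell by 2.62, and S1pr1, which draws cells out of lymphoid tissue along sphingosine 1-phosphate, went from 126 and 167 FPKM to 64.3 ± 2.86 FPKM (SD, n = 8). Gpr183 (EBI2), which guides activated B cells to the outer follicle, rose from 88.5 and 84.6 FPKM to between 280 and 338 FPKM. S1pr3 and the adenosine receptor Adora2a rose by 2.50 and 1.44. The chemokine receptors Ccr7 and Cxcr5 had changes of 0.68 and 0.85, under the size required for a call.

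Of 30 components of antigen receptor signalling, 11 were called lower, 2 higher and 17 neither (median -0.55). Cd79b, a signalling chain of the receptor, went from 1595 and 1385 FPKM to between 293 and 390 FPKM (2.13, adjusted p = 5.29e-11). The proximal kinase gene Syk went from 179 and 231 FPKM to between 40.2 and 48.9 FPKM, and Lyn and Btk reached 52.1 ± 4.30 and 55.7 ± 3.90 FPKM (SD, n = 8) from 129.9 and 141.5 FPKM and from 119.9 and 139.6 FPKM. The Ras activator Rasgrp2 fell by 2.74 and the adaptor Dapp1 by 2.25. Against this, the PI3 kinase adaptor Pik3ap1 (BCAP) rose from 50.1 and 70.7 FPKM to between 164 and 222 FPKM, and the Src kinase gene Fyn from 54.3 and 80.7 FPKM to between 161 and 178 FPKM. Of the 8 markers that identify B cells, 6 were called lower (among them Cd79b, Cd22, Pax5 and Cd79a) and 0 higher (median -1.18), whereas Ebf1 and Blk had changes of 0.33 and 0.76. Their summed level of 1793 to 1920 FPKM after stimulation compares with 4324 and 4121 FPKM before it.

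Inhibitory coreceptors and phosphatases had 8 of 17 called lower and 3 higher (median -0.89). Pecam1, which carries inhibitory ITIM motifs, stood at 52.2 and 54.6 FPKM unstimulated and at 4.67 to 5.85 FPKM stimulated (3.13, adjusted p = 5.78e-11). The adhesion receptor Ceacam1 fell from 10.0 and 10.3 FPKM to between 0.50 and 1.18 FPKM, Fcgr2b, the inhibitory IgG receptor, from 99.5 and 91.4 FPKM to between 17.7 and 22.1 FPKM, and Cd22, a sialic acid-binding restraint on the receptor, from 180 and 188 FPKM to between 41.7 and 53.2 FPKM. Those that rose were Cd5 (1.07 and 1.47 FPKM to between 6.33 and 9.09 FPKM), Lilrb4 (1.21) and Cd72 (1.04), the last lost with quantile normalization and without the unstimulated labelled knockout library. Activators and inhibitors of receptor signalling were thus both among the called falls, as the plot of list members shows.

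Antigen presentation genes fell in part. Of 14 genes of MHC class II presentation 5 were called lower and 0 higher (median -0.84). Besides March1 these included the peptide editor H2-DMa (116 and 150 FPKM to between 45.5 and 51.4 FPKM), its inhibitor H2-Oa (229 and 197 FPKM to between 82.2 and 91.2 FPKM), H2-DMb2 and Rfxank. The class II chains themselves stayed high, H2-Aa at 6390 and 5293 FPKM before and 6961 ± 336 FPKM after stimulation (SD, n = 8), and the invariant chain gene Cd74 had a change of 0.15 (adjusted p = 0.194). The proteasome list of 43 genes had 2 called higher and 3 lower (median 0.15). Those shares, 4.65% and 6.98%, were below the 7.94% and 12.4% of all tested genes. The 3 that fell were the immunoproteasome subunits Psmb9, Psmb10 and Psmb8, by 1.69, 1.32 and 1.32, Psmb8 from 139 and 129 FPKM to between 44.9 and 60.6 FPKM. The 2 that rose were Psme3, an activator of the nuclear proteasome (1.61), and Psmd11 (1.25).

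Interferon response genes all had changes below 0, with 6 of 18 called lower and 0 higher (median -0.81, range -1.95 to -0.24). Stat2, a transducer of the interferon receptors, went from 17.8 and 21.3 FPKM to between 3.73 and 4.89 FPKM, and Xaf1 fell by 1.46, a call lost with a pseudocount of 5. The Gimap GTPases, a cluster linked to lymphocyte survival, had 3 of 8 called lower and 0 higher (median -0.83). Gimap7 went from 31.7 and 25.6 FPKM to between 1.84 and 2.94 FPKM and Gimap1 fell by 1.54, while the call of Gimap3 was lost with TPM and median-of-ratios scaling. Histone genes in this polyA-selected RNA had 5 of 16 called lower and 0 higher (median -0.52), led by the linker histone gene Hist1h1c (15.9 and 17.5 FPKM to between 1.96 and 3.31 FPKM). Of 250 zinc finger genes named Zfp, 41 were called lower (16.4%, beside 12.4% of all tested genes). Only 1 of them, Zfp593, was called higher (0.4%, beside 7.94%), and the list median was -0.41. The complement list had 2 of 6 called lower, Cd55 and Cd93. The call of Cd93 was lost with a pseudocount of 5 and with TPM, median-of-ratios and quantile scaling.

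**Figure D4:**
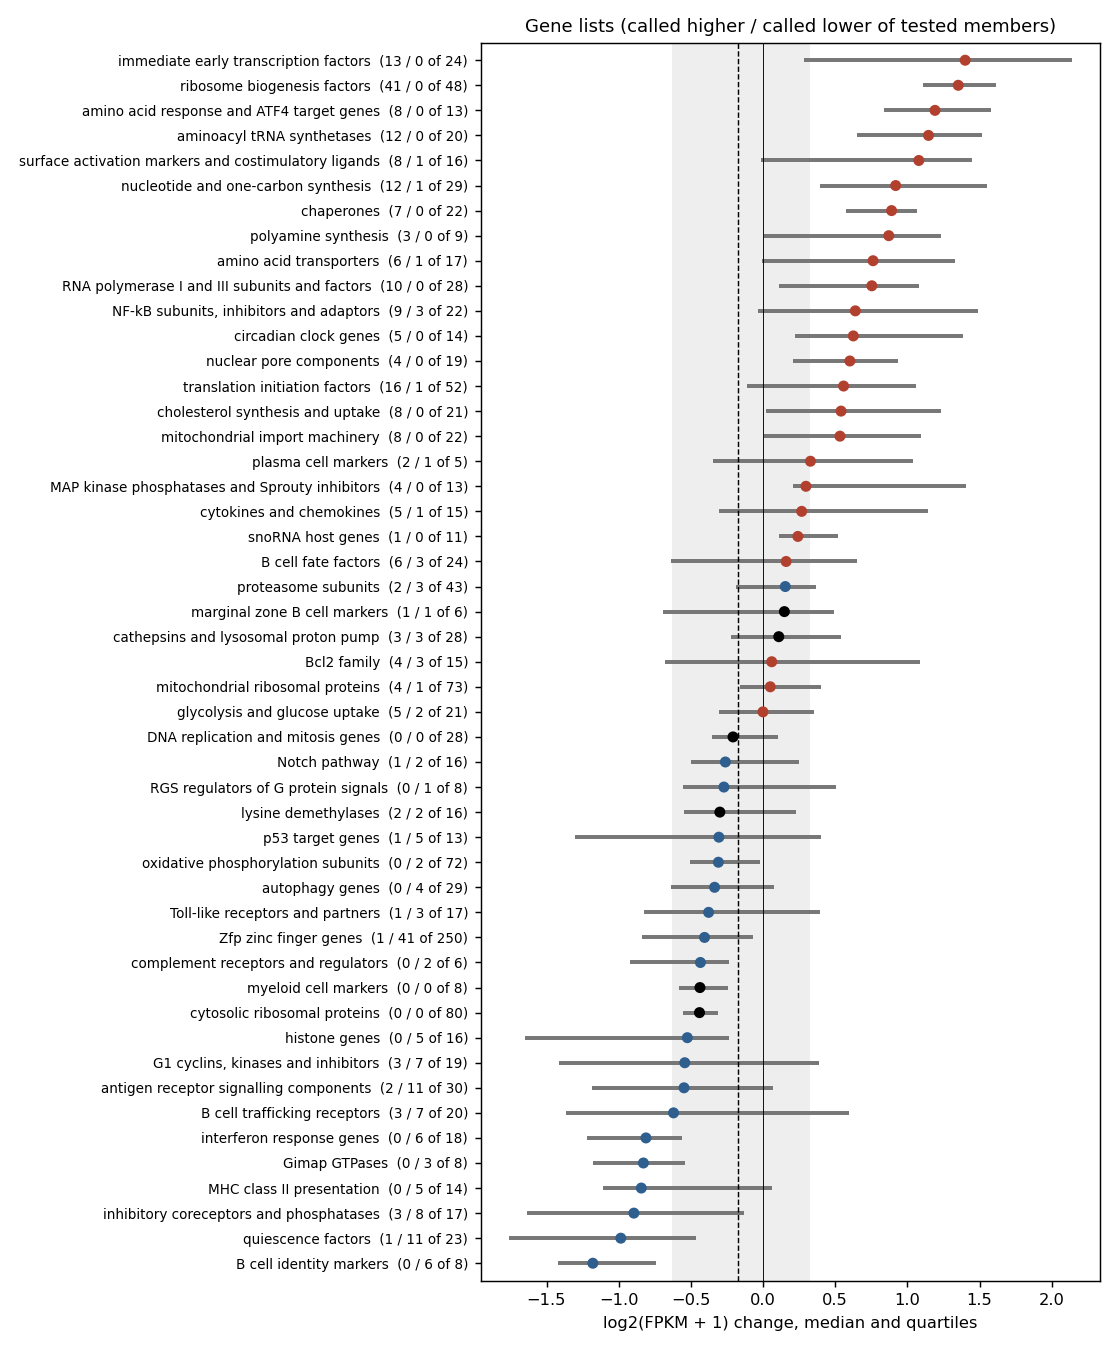
Median (point) and quartiles (line) of the change on the log2(FPKM + 1) scale for each list with at least 5 tested members, with counts called higher and lower beside its name. Points are red where more members were called higher, blue where more were called lower and black where the counts were equal, the dashed line is the median of all 10225 tested genes (-0.17) and the grey band their quartiles. Immediate early factors (1.40) and ribosome biogenesis (1.35) lie at the top and B cell identity markers (-1.18) and quiescence factors (-0.99) at the bottom.

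Most of the response was shared by the genotypes. With a separate response for each genotype in a fit of all 10 libraries, 899 genes were called higher in wild type and 746 in labelled knockout, and 646 in both (6.32% of those tested), which is 71.9% of the wild-type and 86.6% of the labelled knockout calls. For falls the numbers were 1214, 1384 and 1001 (9.79%), or 82.5% and 72.3%. Each genotype has 1 unstimulated library, whose spread is assumed to be that of the stimulated ones. Of the 2078 genes called in the fit of all libraries, 1647 were called the same way in both genotypes, and 1 gene was called in opposite directions. Shared rises took in 37 of the 41 ribosome biogenesis factors called, all 13 immediate early factors, 9 of 9 NF-kB genes and 11 of 12 tRNA synthetases. Shared falls took in 10 of the 11 quiescence factors, 10 of 11 receptor pathway components, 7 of 8 inhibitory coreceptors and all 6 interferon response genes.

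Il2ra gave nearly equal rises, 3.09 in wild type and 3.07 in labelled knockout (adjusted p of the difference 0.920), as did Mthfd2 with 2.30 and 2.31 (0.975), and Trim34a gave falls of 2.92 and 2.90 (0.954). A p that misses the threshold does not show that responses were equal.

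**Figure D5:**
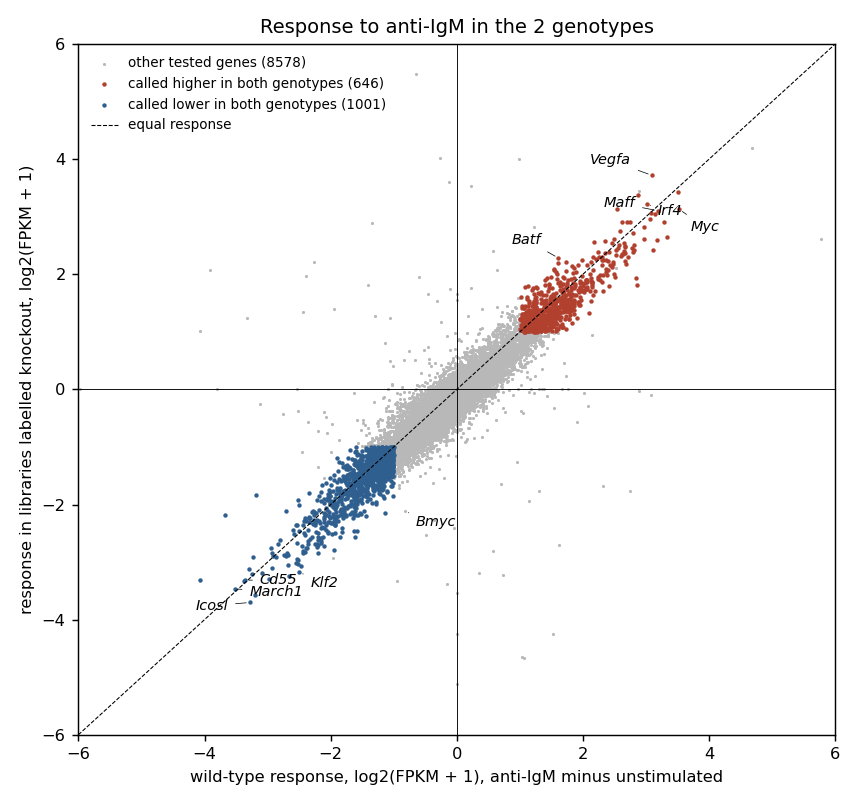
Response to anti-IgM of 10225 genes in wild type (x axis) and in the libraries labelled knockout (y axis), both on the log2(FPKM + 1) scale, with genes called in both genotypes in red (646 higher) and blue (1001 lower) and the line of equal response dashed. The called genes follow the line, with Vegfa and Batf above it and Bmyc and Klf2 below it.

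The size of the response differed between genotypes for 1931 genes (18.9% of those tested, limma interaction term, adjusted p under 0.05; 3390 at an unadjusted p under 0.05), 427 with a higher and 1504 with a lower value in labelled knockout. That split depended on the scaling, at 175 and 3455 with TPM, 562 and 788 with median of ratios, and 873 and 1210 with quantile normalization. Under every scaling tried, 128 genes had a higher and 783 a lower value (8.91% of those tested). Among these, Vegfa rose by 3.09 in wild type and 3.72 in labelled knockout and Batf by 1.61 and 2.28. Gfi1 rose by 3.33 and 2.65, Slc7a5 by 3.17 and 2.59, and Srm by 2.49 and 2.00. Klf2 fell by 2.50 and 3.18. For Slc7a5, Srm and Gfi1 the labelled knockout level was already higher before stimulation (36.7 against 22.9 FPKM, 39.7 against 28.6 FPKM and 17.0 against 11.2 FPKM), and that of Klf2 was 117 against 72.1 FPKM, so each difference rests on the 2 unstimulated libraries.

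Those libraries differed in transcript length. Among tested genes with a longest transcript under 1 kb (492 genes), the labelled knockout library minus the wild-type library had a median of -0.22 (log2) before stimulation, against 0.11 for the 5543 genes over 3 kb. Genes with a higher response in labelled knockout under every scaling had a median longest transcript of 1518 bases and those with a lower one 3878 bases, against 3336 bases over all tested genes. Short, abundant RNAs such as Rpl38 and Rpl39 were at 3245 and 5167 FPKM in the unstimulated wild-type library, at 1961 and 3045 FPKM in the unstimulated labelled knockout one, and at 1595 to 1769 and 2031 to 2326 FPKM after stimulation. The part of transcript length in the differences between genotypes was not tested.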

How the data were processed

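Poly(A) RNA of 10 libraries was sequenced from TruSeq Stranded mRNA libraries, per the labels' protocols. The deposited table holds gene-level FPKM values made by the authors, and STAR 2.4, RSEM 1.2.14 and mm10 are named in the submitters' processing notes. Annotation, filtering and strand setting are not given in the sources used here, so genes sharing reads with a copy or an antisense partner are uncertain. FPKM carry no read totals, so the depth is unknown and no counting interval is given.

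Values were analysed as log2(FPKM + 1) with limma 3.58.1 in R 4.3.3 (trended eBayes, Benjamini-Hochberg adjustment). The minimum for entry was a 10-library mean of 1 FPKM. The first fit had stimulation and genotype as terms (7 residual degrees of freedom), and the second had 4 groups (6), giving each genotype's response and their difference. Calls required a change of 1 or more on the log2 scale with adjusted p below 0.05 (no size for the difference). The fits were tested on simulated data. Same-letter stimulated libraries of wild type and labelled knockout did not deviate together, so letters were not used as pairs. That comparison holds no unstimulated library. Whether unstimulated library A shares a source with stimulated library A of its genotype was not tested.

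The members and gene lists were chosen with earlier results of these data known. Named genes are Nr4a1, the markers, the 12 largest rises and falls shared by the genotypes with at least 10 FPKM, the 6 largest gains and losses in FPKM, up to 3 called genes per list and direction, and the 5 largest differences between genotypes each way. Accession-like and short RNA names were left out of that rule, and any other gene named was chosen after its values were seen. A few genes that meet the rule are not reported here, though counts over lists include them. Alternatives covered the pseudocount, filter, scaling, variance model, library weights, letters, effect size and leaving out each library.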

Additional observations from a re-analysis of the deposited data

Results flagged for a closer look

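Among the named genes, 22 of 400 groups of 4 stimulated libraries held a library far from the other 3, where chance at 1 in 20 gives 20. In stimulated wild-type library A these were Aars at 95.3 FPKM, Trib3 at 17.8, Chac1 at 14, R3hdm2 at 38.8 and the haemoglobin genes Hba-a2 at 35.7 and Hbb-bs at 20.3 FPKM. In wild-type library B they were Polr1b at 93.6 FPKM, Polr3d at 32.5, Ctps2 at 9.87 and Il7r at 17.1 FPKM. Wild-type library C gave Rnase6 at 9.05 FPKM, Cd274 at 101 (100.7), Bcl2a1b at 813.3, Slc16a1 at 59.3 and Cdkn1b at 18.1 FPKM. In labelled knockout library A, Cd52 stood at 746.6 FPKM and Aen at 56.0 FPKM. Library B of that genotype gave Bmf at 7.15 and Zfp608 at 6.18 FPKM, library C Nup62 at 78.5 and Nrarp at 0.80 FPKM, and library D Spp1 at 19.1 FPKM.

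For 28 named genes the response differed between genotypes in limma's interaction term (adjusted p under 0.05) under every scaling tried. The values that follow are the response in labelled knockout minus that in wild type, on the log2(FPKM + 1) scale. Above 0 were the osteopontin gene Spp1 at 1.83, Pfdn4 at 0.85, the ribosomal protein genes Rpl38 and Rpl39 at 0.72 and 0.71, Batf at 0.68, Vegfa at 0.63, Bcl2a1d and Bcl2a1b at 0.56 and 0.54, Nup43 at 0.49, Ly86 at 0.48 and Timm8a1 at 0.35. Below 0, Bmyc stood at -1.30, Celf2 at -1.19, R3hdm2 at -1.15, Ttyh3 at -1.04 and Nuak2 at -1.01. Smaller values below 0 were those of Klf2 (-0.68), Gfi1 (-0.68), Slc7a5 (-0.58), Fyn (-0.58), Srm (-0.49), Slc7a1 (-0.43), Pgam1 (-0.41), Hsp90ab1 (-0.40), Egr2 (-0.39), Btg2 (-0.35), Rrp1b (-0.33) and Nfkbie (-0.29). Each rests on 1 unstimulated library per genotype.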

How the results depend on the processing

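Of the counts of genes called, those of rises (812), falls (1266) and shared falls (1001) became 534, 598 and 457 with a pseudocount of 5, and a minimum mean of 5 FPKM gave 824 falls and 667 shared falls. Differences between genotypes (1931) became 3630 with TPM scaling, 3634 with immunoglobulin genes left out, and 1238 with the replicate block. A log2 size of 0.5 gave 1864 rises, 3129 falls, 1549 shared rises and 2561 shared falls, and a size of 2 gave 91, 150, 67 and 111. Leaving out 1 stimulated library gave 796 to 813 rises, 1240 to 1291 falls, 643 to 650 shared rises, 982 to 1013 shared falls and 1534 to 1904 differences between genotypes. Without an unstimulated library, the stimulation term is the response of the other genotype alone. Its counts are those already given for that genotype and are not a separate check. The other alternatives kept these counts within 1.5 times.

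The letters did not pair the stimulated libraries across genotypes: correlations of same-letter deviations were -0.02 for A, 0.04 for B, 0.01 for C and -0.12 for D. With the replicate block the counts were 815 rises, 1224 falls, 654 shared rises and 981 shared falls. Of 200 named genes, 193 were called and 46 lost the call in at least 1 alternative, 34 of them with a pseudocount of 5, and 0 reversed. The medians of 5 lists changed sign with a scaling: DNA replication and mitosis, glycolysis, NK cell markers, Notch and RGS. The cause of these changes was not tested.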

Other observations

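Lysine demethylases, which remove methyl groups from histones, split by member, with 2 of 16 called higher and 2 lower (median -0.30). Those shares, 12.5% each, stand beside 7.94% and 12.4% of all tested genes. Kdm2b went from 27.9 and 36.4 FPKM to 188 ± 9.66 FPKM (SD, n = 8; 2.52), and Kdm6b from 26.8 and 38 FPKM to 161 ± 11.1 FPKM (2.30). Kdm7a and Kdm2a fell by 1.35 and 1.09, and the call of Kdm2a was lost in at least 1 alternative. In the Notch pathway 1 of 16 genes was called higher (6.25%) and 2 lower (12.5%), again beside 7.94% and 12.4% of all tested genes. The receptor gene Notch2 fell from 39.9 and 49.5 FPKM to 9.45 ± 0.49 FPKM, and Rbpj, the factor that carries the Notch signal to DNA, rose by 1.22.

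Of 28 cathepsin and lysosomal proton pump genes, 3 were called higher and 3 lower (10.7% each), close to the 7.94% and 12.4% of all tested genes. The proton pump subunits and partner Atp6ap2, Atp6v0d1 and Atp6v0c rose by 1.195, 1.189 and 1.02, while the proteases Ctse, Ctso and Ctsh fell by 1.67, 1.40 and 1.32. Ctse differed by genotype at both times, with 146 FPKM before stimulation in wild type against 46.1 FPKM in labelled knockout, and at 44.7 to 47.4 and 12.4 to 14.3 FPKM after it. Autophagy genes had 4 of 29 called lower and 0 higher (median -0.34), a share of 13.8% beside the 12.4% of all tested genes called lower, and of these Tfeb, Atg9a and Atg13 lost their calls in at least 1 alternative. Of 13 p53 target genes 5 were called lower, among them Sesn1, Ccng1 and Trp53inp1, and 1, the exonuclease gene Aen, higher. Rgs14 fell by 2.204, the 1 call among 8 RGS genes (12.5%, beside the 12.4% of all tested genes called lower). Of 6 markers of marginal zone B cells 1 was called lower, Mzb1 by 1.97, and 1 higher, S1pr3 by 2.50 (median 0.15).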
